A study of Mus musculus with 48 samples.

Results

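The genes described here encode the proteins of the cytosolic ribosome. They were the gene symbols of the form Rpl or Rps plus a number, with at most 1 closing letter a, x, y or l, together with *Rplp0*, *Rplp1*, *Rplp2* and *Rpsa*, present in both deposited expression tables. The rule gave 80 of the 16952 genes found in both tables, 48 of the large subunit and 32 of the small subunit. A further gene in each table matched the symbol rule but was missing from the other table, *Rpl6l* in the B6 table and *Rpl39l* in the *APOE*-TR table.

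The cytosolic ribosome consists of a small subunit that decodes mRNA and a large subunit that joins amino acids. Its proteins are encoded by many separate genes and are made in matched amounts, and most of their mRNAs begin with a run of C and T bases (a terminal oligopyrimidine, or TOP, tract) through which mTORC1 and the binding protein LARP1 control their translation. In cortex, the mRNAs are found in all cell types, and neurons also carry them into dendrites and axons.

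The mRNA was measured by RNA-seq in cerebral cortex of 48 mice, in 12 groups of 4. C57BL/6J (B6) mice breathed filtered air (control) or nPM, a collected fraction of urban traffic particles, for 5 hours a day on 3 days a week over 8 weeks and were 4 months old by their labels. Mice in which human *APOE3* or *APOE4* replaces the mouse *Apoe* gene (*APOE*-TR) had the same daily schedule over 15 weeks and were 6 months old. Strain, age, duration and, as the authors state, the batch of nPM thus differ together between the tables. Each set of mice was split by sex, which gave female and male controls and nPM groups for B6, *APOE3* and *APOE4*, and all *APOE*-TR groups, controls included, carried a human allele. Values are CPM as deposited, that is, reads of a gene scaled to those of its library, levels are log2(CPM + 0.5), and differences are from limma on TMM-scaled CPM with 0.5 added. A gene was called at an unadjusted p under 0.005.

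In *APOE*-TR mice the estimated depth was between 17.8 and 31.3 M (mega) reads, and in B6 mice between 2.05 and 24.4 M. The summed CPM of 7 neuron markers was at least 4552 in each *APOE*-TR mouse and at least 2185 in each B6 mouse. In 2 *APOE3* female control libraries the ribosomal protein mRNAs stood apart. The summed CPM of the 80 genes was 9666 in control mouse 6 and 13042 in control mouse 61, against 5276 in mouse 52, 5822 in mouse 63 and at most 6872 in the other 28 *APOE*-TR mice. Over all genes the deposited CPM summed to 792914 in mouse 6 and 880442 in mouse 61, against a median of 681134 in *APOE*-TR mice. In B6 mice the sums were 526568 to 667121. Levels, unlike the fits, were not rescaled for this. As a share of that sum the 80 genes were 1.22% in mouse 6, 1.48% in mouse 61, 0.749% in mouse 52 and 0.794% in mouse 63. The name of the mouse 6 column matched no sample exactly, and the column was assigned to its group from the allele, sex and exposure it states. The main results that use these mice are given with and without them.

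The bases around the start of some members are shown because the TOP tract, where a member has one, lies there. Of the 80 genes, 59 had a start site in the RefSeq promoter table (GRCm38.p6). A run of at least 8 C or T bases crossing the start, looked for within 10 bases on each side on the gene's own strand, was present at 17 of them (28.8%), against 1148 of 27025 genes in the table (4.25%). The first 8 below are members that hold such a run and the last 4 are members described later that hold none at the annotated start. They are examples of both kinds and not a sample of the family. The annotated starts were not checked against these reads, so a member without the run is not shown to lack a TOP tract. Each sequence runs from 20 bases before the start to the tenth base of the transcript, 5′ to 3′ on the gene's strand. Capitals mark the run that crosses the start, as far as it lies within 10 bases of it. C and T bases farther upstream stay in lower case, also where they continue the run, as in *Rpl34*, or form another, as in *Rps15a*.
*Rplp2* (chr7:141447631-141447660, plus strand): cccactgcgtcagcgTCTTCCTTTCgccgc
*Rpl14* (chr9:120571497-120571526, plus strand): cggcagggcgggCCCTCTCTCTTCTCgctg
*Rpl27a* (chr7:109519175-109519204, plus strand): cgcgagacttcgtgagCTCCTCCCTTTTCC
*Rpl35a* (chr16:33056462-33056491, plus strand): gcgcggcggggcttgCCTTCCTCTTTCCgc
*Rps10* (chr17:27635235-27635264, minus strand): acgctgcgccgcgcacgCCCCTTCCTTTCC
*Rps6* (chr4:86857358-86857387, minus strand): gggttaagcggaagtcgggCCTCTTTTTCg
*Rpl34* (chr3:130730328-130730357, minus strand): ccgccccttcCTTTTCCTCTTCCggggacg
*Rps15a* (chr7:118116138-118116167, minus strand): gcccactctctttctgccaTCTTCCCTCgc
*Rps2* (chr17:24720043-24720072, plus strand): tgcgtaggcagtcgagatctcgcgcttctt
*Rps3* (chr7:99483700-99483729, minus strand): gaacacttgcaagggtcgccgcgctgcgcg
*Rpsa* (chr9:120127746-120127775, plus strand): tggctgtgggttatttaaggacgtcatttc
*Rpl12* (chr2:32961692-32961721, plus strand): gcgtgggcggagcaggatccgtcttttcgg

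The genes were spread over 19 chromosomes. Their longest annotated transcripts were short, with a median of 831.5 bases (345 to 5179) against 2789 bases over 18288 genes. Many have near-identical copies elsewhere in the genome. At least 1 window of 50 bases was shared with another gene's transcript for 78 of the 80, and most of the windows were shared for 35. *Rpl3l* was among the 2 that shared none, while *Rpl7a* shared windows with 120 genes. Since the authors counted uniquely mapped reads, levels of most members can leave out reads that also match a copy, and differences between members in level are uncertain. Over the members, the share of windows shared had a Spearman's rho of -0.019 with level per kilobase in *APOE*-TR mice and of -0.10 in B6 mice. How many reads were left out was not tested.

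The copies were counted differently in the 2 tables. In *APOE*-TR mice the 80 genes summed to between 2756 and 13042 CPM (median 3394) and 7 ribosomal protein pseudogenes to between 168 and 1080 CPM (median 225). In B6 mice the genes summed to between 602 and 1240 CPM (median 751), below the 1885 to 4178 CPM (median 2319) of 261 pseudogenes listed in that table. Levels were therefore not compared between B6 and *APOE*-TR mice. All mice of a table had at least 1 read for 79 of the genes in *APOE*-TR and for 69 in B6.

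Per kilobase of transcript, the highest mean levels in *APOE*-TR mice were those of *Rplp1*, an acidic protein of the stalk that recruits elongation factors, at 355 CPM per kb, of *Rps15*, a small-subunit protein, at 351 CPM per kb and of *Rpl41*, the smallest ribosomal protein, at 325 CPM per kb. The lowest were *Rpl3l*, the muscle paralog of *Rpl3*, at 0.143 CPM per kb, and *Rps21*, a small-subunit protein, at 5.83 CPM per kb. In B6 mice *Rps15* was highest at 106 CPM per kb, *Rpl8* followed at 90.8 CPM per kb and *Rpl3l* was again lowest at 0.0837 CPM per kb. The order of the 80 genes per kilobase had a Spearman's rho of 0.444 between the tables, a description over genes that share reads with copies.

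Within *APOE*-TR groups the ribosomal protein mRNAs varied together from mouse to mouse. The deviations of a member from its group means had a median Pearson correlation of 0.964 with the mean of the other members over 32 mice, and 68 members were over 0.9. In B6 mice, at lower levels and depth, the median was 0.562 and 1 member was over 0.9. The first principal component of these deviations took 84.6% of their variance in *APOE*-TR mice over 77 members, and the second, which was mainly *Rpl34*, took 8.08%. When control mice 6 and 61 were left out, the median correlation was 0.926, 55 members were over 0.9 and the first component took 72.2%. The genes outside the list whose deviations were most like the members' mean were *Pfdn5*, a prefoldin subunit (r = 0.986), *Rack1*, a protein of the small subunit that the symbol rule missed (r = 0.986), and *Sod1*, the cytosolic superoxide dismutase (r = 0.984). These points share libraries and depth.

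The mean level of the 80 genes was highest in *APOE3* female controls, at 6.01 ± 0.609 on the log2 scale (SD, n = 4), with mice at 5.43 (52), 5.59 (63), 6.30 (6) and 6.73 (61). *APOE3* females given nPM followed at 5.24 ± 0.420 (SD, n = 4), with mice at 5.82 (55), 5.27 (70), 4.95 (59) and 4.92 (67). *APOE4* female controls were at 5.13 ± 0.233 (SD, n = 4), with mice at 5.37 (21), 5.28 (7), 4.95 (38) and 4.90 (26). The *APOE3* groups overlapped, since nPM mouse 55 was above control mice 52 and 63, whereas each *APOE3* control was above each *APOE4* control.
*APOE4* females given nPM lay between 4.85 and 5.00, and the 16 *APOE*-TR males between 4.59 and 4.86, whatever their allele or exposure. Neighbours in this order differed by less than the larger of their 2 SDs, among females given nPM or carrying *APOE4* and among male groups. *APOE4* females given nPM were at 4.93 ± 0.061 (SD, n = 4), farther below their controls than the pooled SD of these 2 groups, 0.171. B6 mice lay between 1.78 and 2.72 with the 4 groups overlapping, the highest being a male control.

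**Figure D1:**
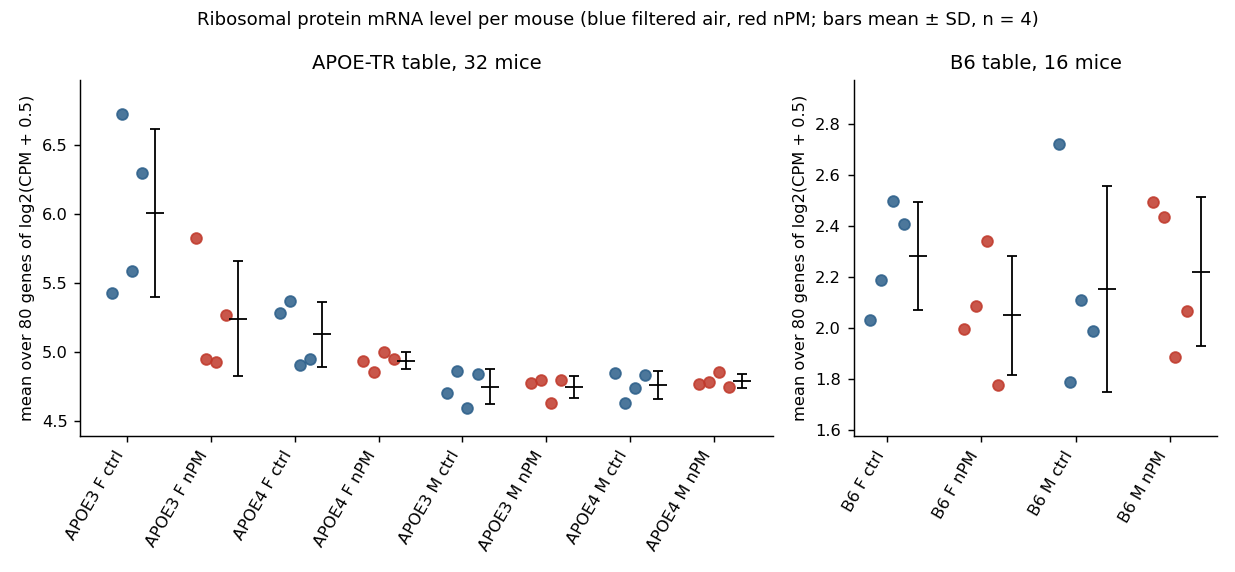
Mean log2(CPM + 0.5) over the 80 ribosomal protein genes in each mouse, with groups on the x axis, *APOE*-TR and B6 in separate panels, controls in blue, nPM in red, and bars for the mean ± SD of 4 mice. *APOE3* female controls spread from 5.43 to 6.73 while all *APOE*-TR males lie between 4.59 and 4.86.

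Members differed in how far they spread. Within *APOE*-TR groups the SD of log2 level had a median of 0.297 over the 80 genes. It was largest for *Rpl34* at 0.998, *Rpl36* at 0.418, *Rpl39* at 0.410 and *Rplp1* at 0.410, and smallest for *Rps15a* at 0.131, *Rpl3l* at 0.159 and *Rps28* at 0.203. *Rps15a* is the member with the longest annotated transcript (5179 bases). Its CPM in *APOE3* female controls was 78.3 (52), 96.8 (6), 115 (61) and 75.01 (63), a far narrower range than that of *Rplp1* in the same mice, 321 to 795 CPM.

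*Rpl34*, a large-subunit protein, varied apart from the rest. Its CPM in *APOE3* female controls was 2.29 (52), 86.8 (6), 69.5 (61) and 23.5 (63), so mouse 52 held little of it. In *APOE3* male controls it was 13.9 (51), 24.997 (55), 23.8 (63) and 3.02 (73). The *APOE4* male controls stood within 24.7 to 26.8 CPM. Low values thus occurred in single mice of both sexes, and the mean of *Rpl34* in *APOE3* female controls, 45.5 ± 39.3 CPM (SD, n = 4), says little of any one mouse.

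**Figure D2:**
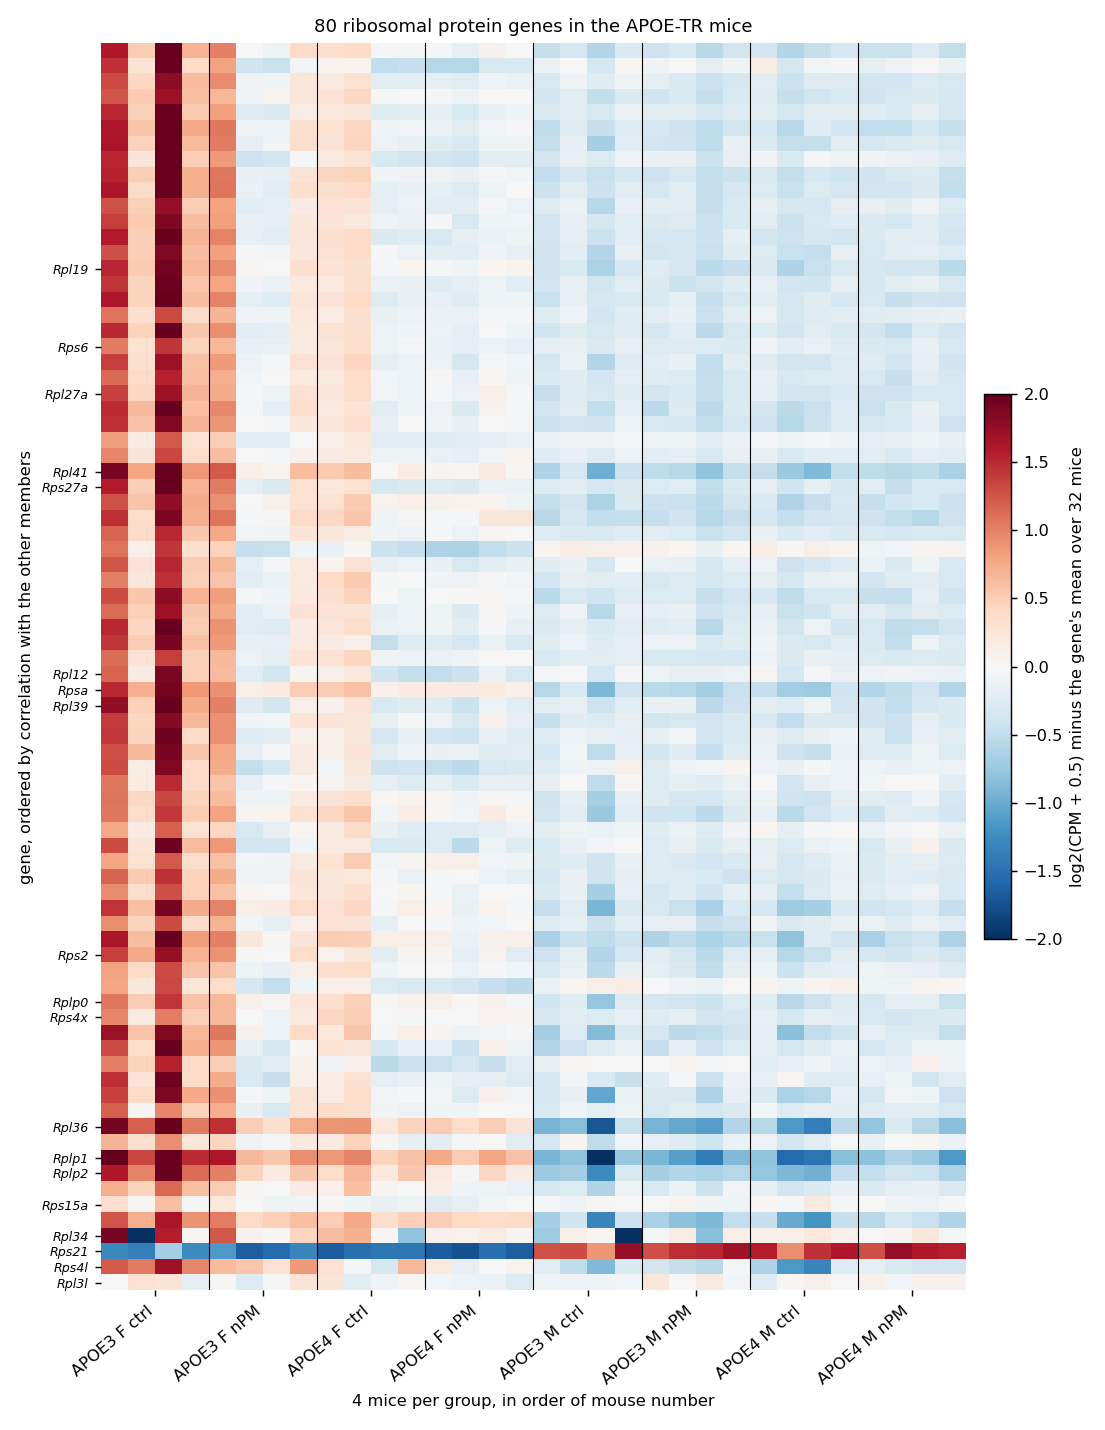
Log2(CPM + 0.5) of each of the 80 genes (rows, ordered by correlation with the other members, with part of the rows labelled) in each of the 32 *APOE*-TR mice (columns, 4 per group), as the difference from the gene's mean over the mice. Most rows are highest in *APOE3* female controls, with mouse 61 the highest, and *Rps21* runs opposite, low in all females.

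Effects of nPM were compared within each sex and genotype. In *APOE3* females the ribosomal protein genes were lower with nPM by a median of 0.76 on the log2 scale (-0.76), with 79 of 80 below 0, while the median of all 16380 genes tested was -0.0029. None of the 80 was called by limma, where 0.672% of all genes were called, and none was called by edgeR on the recovered reads. With the spread shared over the 8 *APOE*-TR groups, 70 of 79 were called, a count that is not set against the share of all genes. At an unadjusted p under 0.05, 62 members fell and none rose, against 10.1% of all genes lower at that threshold. Of 1575 other genes in the shortest 10% by transcript, 414 were lower at it, as were 51 of the 63 members in this length class. The smallest p among the members was that of *Rplp2*, an acidic stalk protein, at -0.82 (SE 0.228, limma adjusted p = 0.230, Benjamini-Hochberg). Its CPM was 28.6 (52), 44.0 (6), 57.0 (61) and 31.4 (63) in controls and 28.9 (55), 19.6 (59), 15.9 (67) and 20.7 (70) with nPM. Mouse 55 overlapped the controls, and *Rps4l* was the only member of the 80 lower without overlap, against 3.85% of all genes.
Without control mice 6 and 61 the median was -0.28, 78 of 80 genes were below 0 and 3 had an unadjusted p under 0.05.

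The stalk, S6, ubiquitin-fusion and paralog members were all lower in the nPM mean, none of them called. *Rplp1* averaged 505 ± 217 CPM in controls and 252 ± 93.1 CPM with nPM (SD, n = 4 each), a log2 difference of -0.91. *Rplp0*, the base of the stalk, differed by -0.57. *Rpsa*, also known as the laminin receptor precursor, averaged 226 ± 88.2 and 123 ± 33.1 CPM. *Rps6*, the substrate of S6 kinases, differed by -0.61 on the log2 scale. *Rps27a*, translated as a fusion with ubiquitin, averaged 82.8 ± 44.7 and 39.2 ± 18.2 CPM. The log2 difference was -0.89 for *Rpl41*, -0.92 for the p53-induced paralog *Rps27l*, -0.50 for *Rpl22*, an RNA-binding large-subunit protein, -0.41 for the X-linked *Rps4x*, -0.48 for *Rps28*, -0.17 for *Rps15a* and -0.08 for *Rpl3l*. *Rpl39* was the lowest at -1.16 and *Rpl34* the highest at 0.40, where control mouse 52 held 2.29 CPM.

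In *APOE4* females all 79 genes tested were below 0 with nPM, between -0.32 and -0.03, with a median of -0.19 that was -0.11 without control mouse 21. None was called by limma or edgeR (0.26% of all genes were called), and 14 fell at an unadjusted p under 0.05, against 2.77% of all genes lower. *Rps6* had the smallest p, at -0.26 (SE 0.0903, limma adjusted p = 0.753). Its CPM was 61.3 (7), 65.98 (21), 48.4 (26) and 50.4 (38) in controls and 47.2 (8), 45.1 (23), 47.6 (27) and 46.004 (39) with nPM. *Rps6* was the only member of the 80 without overlap, by a gap of less than 1 CPM and against 2.04% of all genes lower without overlap, which gives the smallest p that the exact permutation test allows with 4 mice against 4 (0.0286, two-sided, 70 labelings).

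In males the medians lay near 0. The members' median was -0.01 in *APOE3* males, 0.02 in *APOE4* males and 0.06 in B6 males. None was called by limma in these 3 comparisons, where 0.154%, 0.178% and 0.241% of all genes were called, and none by edgeR in the *APOE*-TR males. At an unadjusted p under 0.05 there were 0 members in *APOE3* males, against 2.25% of all genes, 0 in B6 males, against 4.4%, and 2 in *APOE4* males, both higher, against 2.73% of all genes higher. *Rpl5*, which carries 5S rRNA into the large subunit, had CPM of 50.6 (51), 54.1 (55), 53.1 (63) and 54.5 (73) in *APOE3* male controls and 50.1 (53), 49.9 (56), 48.8 (58) and 48.7 (76) with nPM. That was the only one of the 80 in *APOE3* males without overlap, against 0.764% of all genes lower, at a log2 difference of -0.10 (limma unadjusted p = 0.0608), and *Rpl3l* had the smallest p above 0 at 0.17. In *APOE4* males the smallest p were those of *Rplp2* at 0.31 and *Rpl35a* at -0.16, and in B6 males those of *Rpl19* at 0.73 and *Rpl31* at -0.79.

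**Figure D3:**
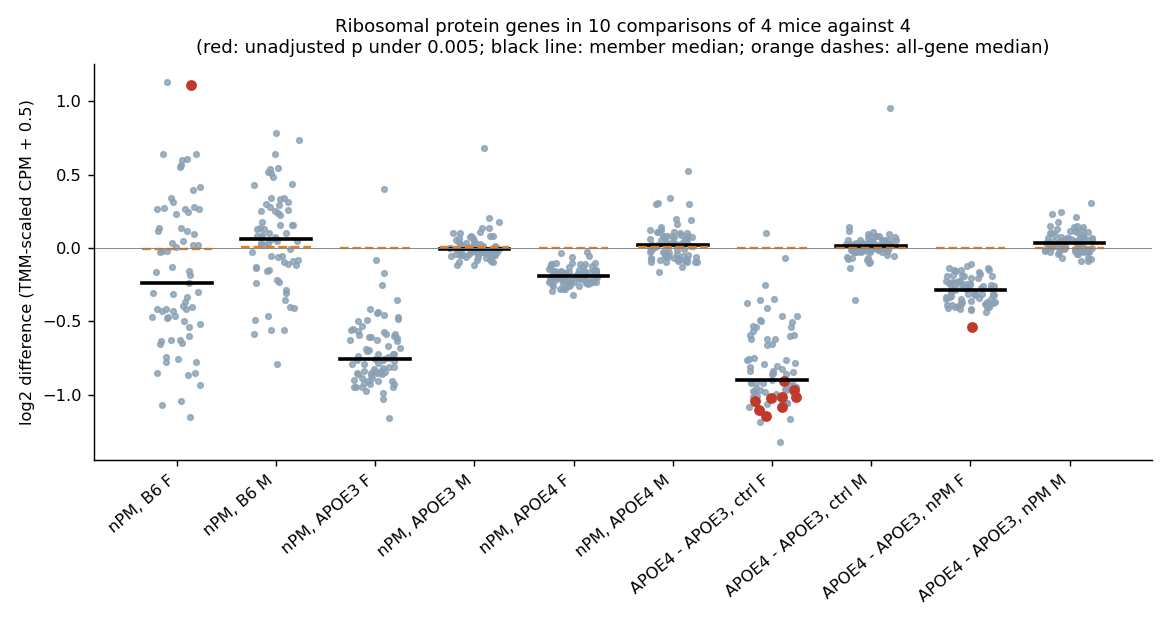
Log2 differences of the ribosomal protein genes (1 point per gene, y axis) in the 10 comparisons of 4 mice against 4 (x axis), with genes at an unadjusted p under 0.005 in red, the member median as a black line and the median of all genes as orange dashes. The members lie together below 0 in the 4 comparisons of *APOE*-TR females, with medians of -0.76, -0.19, -0.90 and -0.29, and around 0 in the *APOE*-TR males.

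In B6 females the members moved in both directions. *Rpsa* rose with nPM by 1.11 on the log2 scale (SE 0.282, limma adjusted p = 0.384) and was the only one of 73 genes called, where 0.713% of all genes were called higher. Its CPM was 10.7 (40), 7.09 (41), 9.57 (42) and 12.1 (43) in controls and 22.1 (50), 23.03 (51), 27.9 (52) and 13.2 (53) with nPM, so the groups did not overlap. The call was lost without control mouse 41 (0.96) and without nPM mouse 52 (0.96). Of the 80 genes, 6 were lower in each nPM mouse than in each control, *Rpl13*, *Rpl19*, *Rpl27a*, *Rpl32l*, *Rps27* and *Rps7*, against 4.22% of all genes, and 4 were higher, *Rpl29* and *Rpsa* among them, against 2.56%. These names were taken after their values were seen. The member median was -0.24, with 29 genes above 0 and 44 below, and it was -0.05 without nPM mouse 53.

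Over all 48 mice, with terms for sex and genotype, 64 of the 68 genes with reads in each mouse were lower with nPM and the median was -0.19. Of these, 2 fell, where 0.669% of all genes were called lower, and 20 fell at an unadjusted p under 0.05, against 7.33% of all genes. *Rpl27a*, a large-subunit protein, differed by -0.32 (SE 0.106) and *Rpl12*, which binds at the stalk base, by -0.47 (SE 0.159), both at a limma adjusted p of 0.301. *Rpl12* averaged 31.98 ± 17.7 CPM in *APOE3* female controls and 15.7 ± 5.39 CPM with nPM, and 3.34 ± 1.11 against 1.65 ± 1.71 CPM in B6 females. In *APOE3* males it averaged 13.9 ± 1.503 and 13.5 ± 0.272 CPM (SD, n = 4 each), nearly the same level. *Rpl27a* in B6 females was 28.9 (40), 24.5 (41), 26.004 (42) and 27.2 (43) in controls and 23.1 (50), 9.59 (51), 24.1 (52) and 19.9 (53) with nPM. Without control mice 6 and 61 neither gene was called (-0.22 for *Rpl27a*, -0.35 for *Rpl12*), the member median was -0.08 and 48 of 68 genes were below 0.

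The nPM response was compared between females and males as the mean over B6, *APOE3* and *APOE4* of the female difference minus the male difference. In this contrast 63 of 68 genes were below 0, with a median of -0.40. Of these, 5 were called, all lower in females than in males, where 1.1% of all genes were called lower, and 25 were lower at an unadjusted p under 0.05, against 7.55% of all genes. They were *Rpl19*, which forms a bridge between the subunits (-0.87, SE 0.210, limma adjusted p = 0.140), *Rpl32l*, named as a copy of *Rpl32* (-0.72, SE 0.195, limma adjusted p = 0.203), *Rps3*, at the mRNA entry (-0.64, SE 0.183, limma adjusted p = 0.212), *Rps2*, also near the mRNA entry (-0.77, SE 0.226, limma adjusted p = 0.217), and *Rpl35a* (-1.04, SE 0.345, limma adjusted p = 0.244). *Rpl35a* was no longer called in most of the 48 fits that left out 1 mouse, in which the other 4 kept their calls throughout. Of 1095 other genes in the shortest 10% by transcript, 36 were called lower in this contrast and 174 were lower at an unadjusted p under 0.05. The 58 members of this length class had 4 and 22.
*Rpl19* is given by group. Its B6 values entered the contrast that called it, so they are not a second observation. In B6 females its CPM was 3.53 (40), 3.66 (41), 4.93 (42) and 4.66 (43) in controls and 2.91 (50), 2.07 (51), 2.23 (52) and 1.64 (53) with nPM, with no overlap. In B6 males it was 4.43 (0), 1.44 (2), 1.51 (3) and 3.52 (6) in controls and 7.07 (10), 5.03 (11), 3.23 (12) and 3.45 (16) with nPM, with overlap. *APOE3* females averaged 138 ± 64.4 CPM in controls against 73.9 ± 24.5 CPM after nPM. *APOE3* males averaged 42.3 ± 4.29 and 42.9 ± 3.90 CPM (SD, n = 4 each).
Without control mice 6 and 61, *Rpl19* (-0.68) and *Rpl32l* (-0.52) were called and the median was -0.25, and the number called ran from 4 to 12 when each mouse was left out in turn.

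The alleles were compared in mice of 1 sex and exposure, and *APOE3* female controls enter both this comparison and the nPM comparison of *APOE3* females. In female controls 79 of the 80 genes were lower in *APOE4* than in *APOE3*, with a median of -0.90. Of these, 9 were called, all lower, where 3.38% of all genes were called lower, and 71 were lower at an unadjusted p under 0.05, against 20.4% of all genes. Of 1579 other genes in the shortest 10% by transcript, 150 were called lower and 777 were lower at an unadjusted p under 0.05. The 63 members of this length class had 9 and 58. In 57 of the 80 each *APOE4* control was below each *APOE3* control, against 16.6% of all genes. At 5% FDR none was called, and the members' smallest limma adjusted p was 0.0764. Of the alternatives, edgeR called 22 of the 80 and the spread shared over groups 71 of 79. The shares of all genes called under these alternatives are not given, so the counts are not read as particular to the family.

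The called genes came from both subunits. *Rps2* had CPM of 42.3 (52), 65.97 (6), 84.4 (61) and 40.7 (63) in *APOE3* and 26.3 (7), 29.2 (21), 21.2 (26) and 25.9 (38) in *APOE4* controls, a log2 difference of -1.04 (SE 0.211). *Rplp2* had CPM of 28.6, 44.0, 57.0 and 31.4 in *APOE3* and 18.4 (7), 22.6 (21), 16.5 (26) and 20.8 (38) in *APOE4* controls, a log2 difference of -0.91 (SE 0.195). *Rplp1*, its stalk partner, had 321 (52), 547 (6), 795 (61) and 357 (63) CPM in *APOE3* and 232 (7), 250.1 (21), 171 (26) and 191 (38) CPM in *APOE4* controls, a log2 difference of -1.11 (SE 0.256). In all of these genes mice 6 and 61 were the highest of the *APOE3* controls, and mice 52 and 63 still lay above each *APOE4* control. *Rps4l*, a copy of *Rps4x* annotated as a transcribed pseudogene, had 12.2 (52), 14.0 (6), 19.4 (61) and 11.6 (63) CPM against 7.11 (7), 5.48 (21), 4.32 (26) and 9.33 (38) CPM, a log2 difference of -1.02 (SE 0.233). Further called genes, named after their values were seen, included *Rpl31* at -1.15, *Rpl14* at -1.02, *Rps10* at -0.97 and *Rpl11* at -1.08.
Other stalk and marked members were lower without being called. The log2 difference was -0.59 for *Rplp0*, -0.84 for *Rpsa*, -0.62 for *Rps6*, -1.19 for *Rps27a*, -1.06 for *Rpl41*, -0.91 for *Rps27l*, -0.62 for *Rpl22*, -0.38 for *Rps4x*, -0.25 for *Rps15a* and -0.07 for *Rpl3l*.

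This comparison rested on few mice. Without *APOE3* control mouse 6 only 1 gene was called, without mouse 61 there were 6, without mouse 63 there were 17 and without mouse 52 there were 56. Leaving out an *APOE4* control gave 2 to 4 called genes. Without both mice 6 and 61, 12 genes were called, 1 of them at 5% FDR, 53 were at an unadjusted p under 0.05, 79 of 80 were below 0 and the median was -0.40. In that fit, 129 of 1605 other genes in the shortest 10% by transcript were called lower, and 422 were lower at an unadjusted p under 0.05. In the longest 10% these were 21 and 83 of 1608 genes. For the fits without 1 mouse the shares of all genes called are not given.

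In females given nPM all 79 genes tested were lower in *APOE4* than in *APOE3*, between -0.54 and -0.11, with a median of -0.29. *APOE3* nPM mouse 55 stood above the other 3 in its group, and the median was -0.10 without it. *Rps4l* was lower in *APOE4* (-0.54, SE 0.132, limma adjusted p = 0.350) and was the only one called, where 0.727% of all genes were called lower. Its CPM was 9.01 (55), 8.57 (59), 7.14 (67) and 10.6 (70) in *APOE3* and 6.55 (8), 4.98 (23), 5.72 (27) and 5.99 (39) in *APOE4*, with no overlap, as for 5 of the 80 against 3.51% of all genes. At an unadjusted p under 0.05, 5 genes were lower, against 4.43% of all genes. The call was lost without *APOE3* mouse 70 (-0.45) and without *APOE4* mouse 23 (-0.48), 27 (-0.54) or 39 (-0.55).

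In males the medians between the alleles lay near 0. Among male controls the median was 0.01, no gene was called by limma or edgeR (1.37% of all genes were called) and 1 was lower at an unadjusted p under 0.05, against 3.36% of all genes, while *Rpl34* was at 0.95. Among males given nPM the median was 0.03, no gene was called by limma or edgeR (1.96% of all genes were called) and 3 were at an unadjusted p under 0.05, all higher in *APOE4*, against 4.9% of all genes higher, with *Rpl29* at 0.23. Over 48 mice the median difference between the alleles was -0.29, with 67 of 68 genes below 0. No gene was called by limma (1.81% of all genes were called), and 19 were lower at an unadjusted p under 0.05, against 6.61% of all genes. *Rpl15* had the smallest p at -0.27. Without control mice 6 and 61 the median was -0.13 and no member was at an unadjusted p under 0.05.
The nPM response was less negative in *APOE4* than in *APOE3* mice by a median of 0.31 over both sexes, with 77 of 79 genes above 0. No gene was called by limma or edgeR (0.727% of all genes were called), and 7 were higher at an unadjusted p under 0.05, against 4.83% of all genes. *Rps10* had the smallest p at 0.41, and *Rpl34* was at -0.59. Without control mouse 61 the median was 0.18, and without both mice 6 and 61 it was 0.06.

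**Figure D4:**
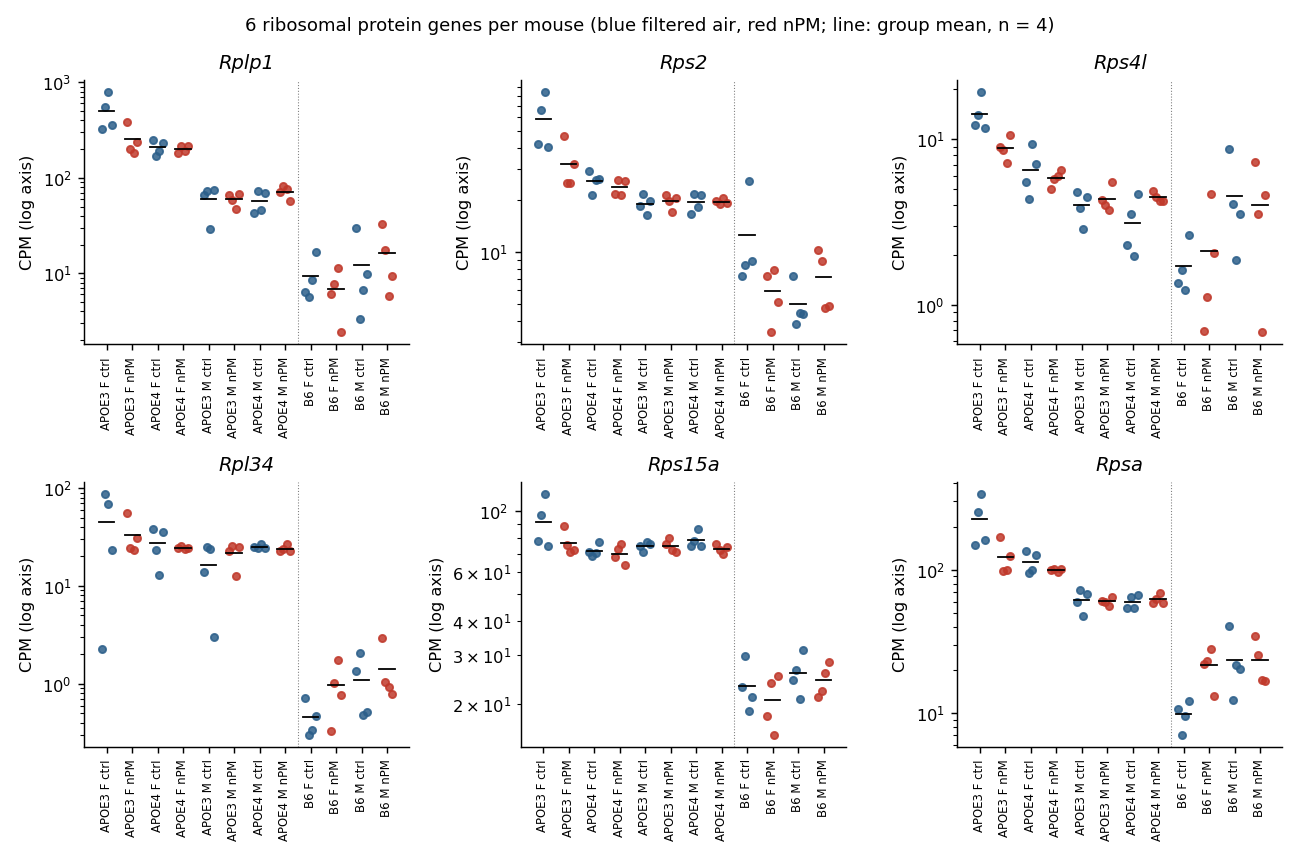
CPM on a log axis for *Rplp1*, *Rps2*, *Rps4l*, *Rpl34*, *Rps15a* and *Rpsa* in each mouse, with the 12 groups on the x axis, controls in blue, nPM in red, a line for the mean of 4 mice, and *APOE*-TR left of the dotted line. *Rps2* lies between 40.7 and 84.4 CPM in *APOE3* female controls and at or below 29.2 CPM in *APOE4* female controls, while *Rpl34* is at 2.29 CPM in 1 *APOE3* female control.

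Transcript length moved with these differences among all other genes. In each mouse a slope was taken of log2 level, relative to the mean of the mice, on log2 transcript length over the genes outside the list, so that a negative slope means that short transcripts were relatively high. The slope was -0.295 ± 0.205 (SD, n = 4) in *APOE3* female controls, -0.39 in mouse 6 and -0.54 in mouse 61. It averaged -0.077 in *APOE3* females given nPM, -0.035 in *APOE4* female controls, 0.013 in *APOE4* females given nPM and between 0.094 and 0.107 in the *APOE*-TR male groups, the same order as the ribosomal protein level among the females. With nPM in *APOE3* females, other genes with transcripts under 1204 bases had a median of -0.33 and those of 6470 bases or more a median of 0.38, while the 63 members in the shortest class had -0.77. Between the alleles in female controls the corresponding medians were -0.39, 0.46 and -0.92. Leaving out control mice 6 and 61, they were -0.09, 0.10 and -0.29 with nPM and -0.16, 0.16 and -0.41 between the alleles. With the slope as a covariate the member median was -0.08 with nPM in *APOE3* females and -0.11 between the alleles in female controls, where 2 genes, *Rps2* and *Rplp2*, were called.
In *APOE4* females the nPM median was then 0.03, and between the alleles in females given nPM it was 0.10. In bulk cortex, fewer cells of a type and less RNA per cell cannot be told apart.

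**Figure D5:**
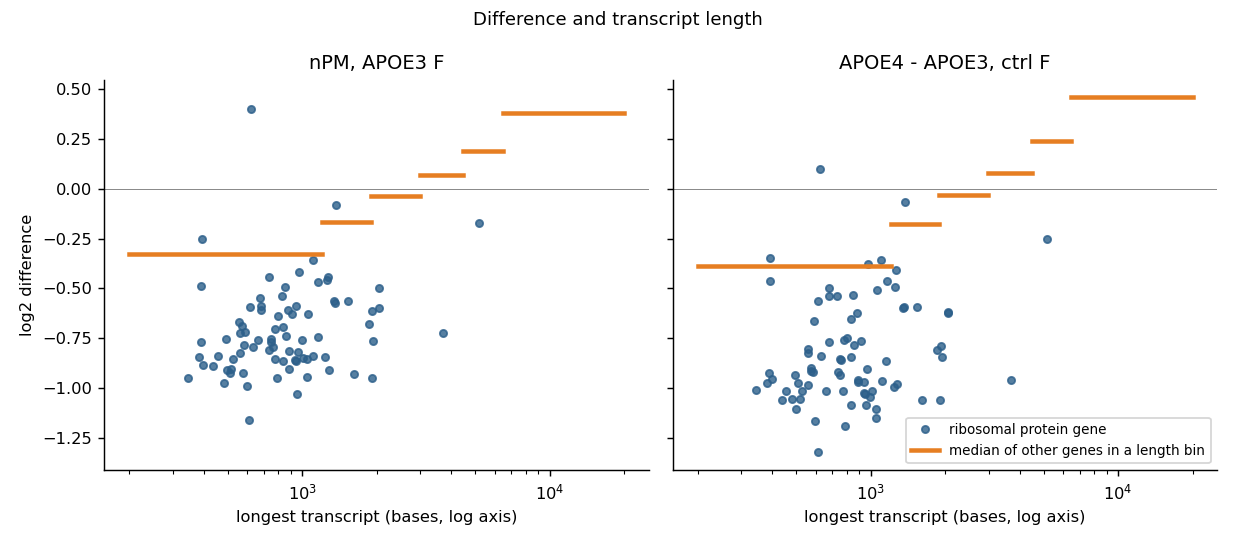
Log2 difference (y axis) against the longest annotated transcript in bases (x axis, log scale) for the ribosomal protein genes and the other genes, with nPM in *APOE3* females at left and *APOE4* minus *APOE3* in female controls at right. The other genes' medians rise from -0.33 to 0.38 and from -0.39 to 0.46 between the shortest and longest class, and the members in the shortest class lie at -0.77 and -0.92.

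RNA quality and cell type genes in the same libraries were read beside the members. The 4 long non-coding RNAs read as signs of RNA quality summed to between 1263 and 3579 CPM in *APOE3* female controls, 2732 and 5814 CPM with nPM, 3245 and 5964 CPM in *APOE4* female controls and 5566 and 6892 CPM in *APOE3* male controls. Of these, the nuclear RNA *Malat1* was called between the alleles in female controls, higher in *APOE4* by 1.64 on the log2 scale. The median log2 difference of the 4 RNAs was 1.17 with nPM in *APOE3* females and 1.26 between the alleles in female controls. Without control mice 6 and 61 these medians were 0.62 and 0.71, so the RNAs stayed higher there. Their part in the ribosomal protein differences was not tested. Of the marker lists of 7 genes each, summed microglia markers were 388 to 577 CPM in *APOE3* female controls, 281 to 394 CPM with nPM and 277 to 602 CPM in *APOE4* female controls. Oligodendrocyte markers summed to 4880 to 7101, 3741 to 5103 and 3841 to 5675 CPM in the same groups. Neuron markers summed to 5030 to 7055, 5291 to 5764 and 4871 to 5474 CPM, and astrocyte markers to 3193 to 4232, 3286 to 4130 and 3157 to 4186 CPM. Choroid plexus markers ran from 28.7 to 1493, 9.28 to 97.2 and 39.4 to 1180 CPM, so that single controls held many times more than others.
With nPM in *APOE3* females the median log2 difference was -0.59 for microglia, -0.25 for oligodendrocyte, -0.29 for astrocyte, -0.05 for neuron, 0.59 for oligodendrocyte precursor, 0.08 for endothelial, -1.06 for choroid plexus and -0.33 for blood markers, and none was called. Between the alleles in female controls the medians were -0.39, -0.12, -0.38, -0.05, 0.90, 0.38, 0.31 and -0.48 in that order, with 1 microglia and 1 astrocyte marker called lower and 1 neuron marker higher. Without control mice 6 and 61 the medians with nPM, in the same order, were -0.26, -0.22, -0.20, 0.03, -0.13, -0.06, -0.14 and 0.38. Between the alleles they were then -0.12, -0.10, -0.28, -0.10, 0.16, 0.03, 1.00 and 0.31. None of these markers was without reads in a whole group of *APOE*-TR mice, and their part in the ribosomal protein differences was not tested.

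Genes that work with the ribosome were taken as fixed lists, to be read against 0.672% of all genes called and 10.1% lower at an unadjusted p under 0.05 with nPM in *APOE3* females, and against 3.38% called lower and 20.4% lower between the alleles in female controls. Other mRNAs known to carry a TOP tract, which encode elongation factors and related proteins, had a median of -0.57 with nPM in *APOE3* females, where 0 of 17 were called and 9 were lower at an unadjusted p under 0.05, with *Eef1a1* at -0.57 and *Eef1b2* at -0.79. Between the alleles in female controls their median was -0.61, with 1 of 17 called and 13 lower. The medians were -0.22 without control mice 6 and 61, with none lower at that threshold, and -0.34, with 11 lower. The 6 ribosomal protein genes that the symbol rule missed, some of which, such as *Fau* and *Rack1*, are also in the TOP list, had medians of -0.70 and -0.82, and of -0.27 and -0.37 without those mice. *Rpl22l1*, the paralog of *Rpl22*, was called lower between the alleles at -1.36.
Mitochondrial ribosomal protein genes had a median of -0.46 with nPM in *APOE3* females, where 0 of 77 were called and 30 were lower at an unadjusted p under 0.05. Between the alleles in female controls the median was -0.55, with 4 of 77 called, all lower, and 55 lower at an unadjusted p under 0.05. The medians without control mice 6 and 61 were -0.14, with none lower at that threshold, and -0.21, with 29 lower.
The 25 biogenesis genes had a median of -0.06 with nPM in *APOE3* females, none called, and of 0.01 between the alleles in female controls, where *Polr1a*, the largest subunit of RNA polymerase I, was the only one called and was higher in *APOE4* by 1.09 on the log2 scale. The 14 genes of the mTORC1, S6 kinase and LARP1 group had medians of 0.47 and 0.54, none called, with *Mtor* at 0.61 between the alleles. Their medians without control mice 6 and 61 were 0.18 and 0.25, the latter with 5 called, all higher. In that latter fit 214 of 1608 other genes in the longest 10% by transcript were also called higher. The shares of all genes called without those mice are not given for any of these lists, so such counts are not read as particular to a list. The 53 initiation factors had medians of -0.24 and -0.23, with 1 called higher in the former and 2 higher and 2 lower in the latter, and the 7 elongation factors had medians of -0.43 and -0.44, none called.
In the contrast of female and male responses, *Tpt1*, which encodes a growth-related protein with a TOP mRNA, at -0.83 and *Fau*, which encodes a ubiquitin-like fusion of the small subunit, at -0.78 were among 3 of 16 called, all lower, where 1.1% of all genes were called lower, and 1 of 16 was called without control mice 6 and 61.

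Sex was not a comparison of the study's design for this family and is given as a description, with the genes chosen after their values were seen. In *APOE*-TR mice 77 of the 80 genes were higher in the mean of 16 females than in the mean of 16 males, by a median of 0.57 on the log2 scale. These were 72 genes and 0.42 without control mice 6 and 61. In 24 of the 80 each female was above each male, against 3.02% of all genes, and the number was also 24 without those mice. *Rplp1* was between 171 and 795 CPM in females (mean 292) and between 29.1 and 82.2 CPM in males (mean 62.4), a log2 difference of 2.11. *Rps4x* averaged 109 CPM in females and 72.0 CPM in males. *Rpl9*, *Rps13* and *Rps15a* were level between the sexes, at log2 differences of -0.095, 0.0018 and 0.03. The length slope also differed, averaging -0.295 to 0.013 in the female *APOE*-TR groups and 0.094 to 0.107 in the male groups. Its part in the difference between the sexes was not tested. The labels do not say whether female and male libraries were made together, so sex cannot be told apart from such a difference.

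*Rps21* went the other way and was the only member with each female below each male, against 2.72% of all genes. The gene lies at chr2:180257379-180258444 on the plus strand, with a transcript of 394 bases. In females it was 0.197 (52), 0.238 (6), 0.625 (61) and 0.244 (63) CPM in *APOE3* controls, 0.308 (55), 0.0705 (59), 0.110 (67) and 0.217 (70) CPM with nPM, 0.0667 to 0.159 CPM in *APOE4* controls and 0.0353 to 0.133 CPM with nPM. In males it was between 2.80 and 5.55 CPM, at a mean of 4.42 CPM against 0.176 CPM in females, a log2 difference of -2.87.
The female values amount to a few reads per mouse. In B6 mice *Rps21* was between 1.69 and 11.2 CPM in females (mean 4.34) and between 6.02 and 23.05 CPM in males (mean 12.5), so the ranges overlapped. In B6 mice the members' median difference between females and males was -0.06, and *Rplp0* was the only one of the 80 with each female below each male, against 1.08% of all genes.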

How the data were processed

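The authors isolated cortex RNA (TRIzol, RNeasy), made stranded mRNA libraries (TruSeq), mapped reads to mm10 with TopHat2 2.0.8b, kept unique reads and quantified RefSeq genes in Partek Flow. The deposited values are CPM made by the authors, in separate tables for B6 and *APOE*-TR mice. The lowest CPM of a mouse was taken as a gene without reads, so reads were recovered as multiples of it. Low values were whole within 0.05 for 93.8 to 94.9% of genes in *APOE*-TR and 74.3 to 92.7% in B6 mice, and estimated depth was 2.05 to 31.3 M (mega) reads, so that genes under 1 CPM rest on few reads.

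CPM were scaled by TMM (edgeR 4.0.16), 0.5 was added and log2 taken. The fits used limma 3.58.1 (trend, R 4.3.3) over genes with at least 1 read in each mouse, with Benjamini-Hochberg adjustment over all genes. The 48-mouse fits had terms for sex, genotype and nPM. Called means an unadjusted p under 0.005, and SD and n are of mice. The alternatives were pseudocounts of 0.1 and 2, DESeq2 1.42.0 size factors or no TMM, no filter, at least 10 reads, voom, spread shared over groups, edgeR on recovered *APOE*-TR reads, a length-slope covariate and each mouse left out. Named members were those called (up to 5 per direction), or the smallest p per direction, a set of members with known roles, and the extremes of level and spread. Members and lists were chosen with earlier results of these data known. The procedure was tested on simulated data. Each library is a separate mouse. B6 and *APOE*-TR tables were fitted together only in the 48-mouse fits, where genotype is a term. Transcript lengths and copies are from GENCODE M21 (longest transcript tied to RefSeq, or else longest coding), and start sequences from RefSeq (GRCm38.p6). Results of some genes that the rule covers are not reported here.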

Additional observations from a re-analysis of the deposited data

Results flagged for a closer look

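In 3 of 60 checks a single mouse lay far from the other 3. Each check took the mean level or 1 gene in 1 of the 12 groups of 4 mice. For independent checks chance gives about 1 in 20, but these share mice and genes that vary together. The mean log2 level of the 80 genes was 4.62 in *APOE3* male nPM mouse 58, the lowest of its group. *Rpl34* was at 26.8 CPM in *APOE4* male control mouse 32, above 3 mice that lay within 24.7 and 24.8 CPM. *Rps21* was at 0.625 CPM in *APOE3* female control mouse 61, above 0.197 to 0.244 CPM in the others, and the same mouse had the highest mean level of the 80 genes.

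The log2 nPM response differed between females and males, in the mean over B6, *APOE3* and *APOE4*, for *Rpl19* (-0.87), *Rpl32l* (-0.72), *Rps3* (-0.64), *Rps2* (-0.77) and *Rpl35a* (-1.04), each at an unadjusted p under 0.005 in limma and none at 5% FDR.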

How the results depend on the processing

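In the comparisons of females and those over 32 or 48 mice the median difference of the members kept its sign in each fit that left out 1 mouse, and was -0.94 to -0.53 with nPM in *APOE3* females and -1.06 to -0.67 between the alleles in female controls. In males, where medians lay near 0, it changed sign, with ranges of -0.08 to 0.26 (nPM, B6), -0.06 to 0.03 (nPM, *APOE3*), -0.03 to 0.05 (nPM, *APOE4*), -0.04 to 0.05 (alleles, controls) and -0.0024 to 0.04 (alleles, nPM). Counts of called members were less stable, and moved by over 1.5 times in 62 of 256 such fits, with ranges of 0 to 5 for nPM in 48 mice, 0 to 3 in B6 females, 0 to 2 in *APOE3* females, 0 to 1 in *APOE4* females, 0 to 2 in *APOE4* males, 1 to 56 between the alleles in female controls, 0 to 1 in females and 0 to 1 in males given nPM, 0 to 1 in 48 mice, 4 to 12 for the female minus male response and 0 to 1 for the response between alleles.

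For nPM in 48 mice, 1 member was called with a pseudocount of 0.1, with at least 10 reads or with the length slope, and 0 without a filter. In B6 females 2 were called with a pseudocount of 2, at least 10 reads, voom, the length slope or shared spread. With the spread shared over the groups of a table, 70 members were called in *APOE3* females, 71 between the alleles in female controls and 0 in females given nPM. In female controls edgeR called 22, and it was not run in fits with B6 mice, whose low values were less often whole. With the length slope as covariate, 2 were called in female controls, 6 in females given nPM and 1 in *APOE4* males, and the medians were -0.082 (*APOE3* females), 0.027 (*APOE4* females), -0.11 and 0.095 (alleles in female controls and in females given nPM) and 0.011 (response between alleles), so the medians of *APOE4* females and of females given nPM changed sign. In 48 mice voom called 2 between the alleles, and the female minus male response had 8 with a pseudocount of 2 and 8 without TMM. Omitting control mice 6 and 61, chosen after seeing the data, gave 0 for nPM in 48 mice, 2 for the female minus male response and a median of -0.40 in female controls. These counts of members are not set against the shares of all genes called under the same settings. The causes were not tested.

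Among single members, with each mouse left out in turn, 40 values passed the threshold only in such a fit. In these fits 94 values no longer passed it and 1618 were unchanged. Under the other settings, 21 values passed the threshold only there and 20 no longer passed it. A further 728 values were unchanged and 2 moved. These include the ranges of the mean level within *APOE*-TR groups, taken again over members of at least 100 CPM. Such ranges have no threshold, and both values that moved were ranges. Read sharing with copies and the lower depth of B6 mice limit single genes there. No paired analysis was possible because compared groups share fewer than 2 animal numbers.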
